A study of Homo sapiens with 14 samples.

Results

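The 10 genes described here encode proteins that mark the surface of white blood cells. They are PTPRC (CD45), its associated protein PTPRCAP, SPN (CD43), CD2, CD7, CD5, CD6, CD28, CD48 and CD38. They were chosen by symbol from the 58440 genes of the deposited tables, by matching Ensembl identifiers to GENCODE release 44 for GRCh38, and each of the 10 was found once. RNA-seq was measured in 14 libraries of HEK-293T cells, a human embryonic kidney line, and Jurkat cells, a human T-cell leukemia line. Each mixture held 1000000 cells, and HEK cells made up 100%, 80%, 60%, 50%, 40%, 20% or 0% of them, with 2 libraries at each percentage. HEK cells were grown in DMEM and Jurkat cells in RPMI, with no other treatment, and ERCC spike-in RNA was added to every sample. The labels speak of technical replicates and name no separate cultures, so each p-value below measures only the spread between such libraries.

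Libraries held from 4468822 to 28303668 gene counts, and spike-ins took from 0.674% to 7.65% of the counts. The pure Jurkat libraries were the shallowest. The names of the deposited files carry a mark that divides the libraries into groups of 8 and 6, whose meaning is not given in the sources used here. Both pure Jurkat libraries are in the first group and both pure HEK libraries in the second, so in the pure cells the line cannot be told apart from this group. All 6 T cell markers examined (CD3D, CD3E, CD3G, CD247, LCK and TRAC) were higher in Jurkat cells and summed to 996 and 1127 CPM (counts scaled to 1000000 gene counts in each library) there, against 4.65 and 2.31 CPM in pure HEK libraries. All 7 HEK-293T markers examined, among them KRT18 and PAX2, were higher in HEK cells, with sums of 118 and 127 CPM against 4.05 and 2.50 CPM. The B cell marker CD79A was higher in Jurkat cells at 6.04 CPM, while no myeloid marker (CSF1R among them) or NK cell marker (NCR1 among them) had enough counts to be tested.

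CD45 is a receptor tyrosine phosphatase that removes the inhibitory phosphate from Src family kinases such as Lck, and so sets the threshold of antigen receptor signaling. CD43 is a long, heavily O-glycosylated and sialylated mucin. CD2 and CD48 belong to one family of immunoglobulin-type adhesion receptors, CD5 and CD6 are scavenger-receptor-type regulators of T cell signaling, and CD28 is the main costimulatory receptor of T cells. CD7 is an immunoglobulin-type protein found early in the T lineage, and CD38 is an ectoenzyme that consumes NAD.

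The genes lie on 6 autosomes. CD2 (chr1:116754430-116769229, plus strand), CD48 (chr1:160678746-160711831, minus strand) and PTPRC (chr1:198638457-198757476, plus strand) are on chromosome 1. CD6 (chr11:60971680-61020377) and CD5 (chr11:61102489-61127852) are close neighbors on the plus strand of chromosome 11, which also carries PTPRCAP (chr11:67435510-67437682, minus strand). CD28 is at chr2:203706475-203738912, CD38 at chr4:15778275-15853232 and SPN at chr16:29662979-29670876, all on the plus strand, and CD7 is at chr17:82314868-82317608 on the minus strand. PTPRCAP lies wholly within the span of CORO1B on the same strand, and SPN shares 7598 bp with QPRT on the same strand, so the division of reads between these neighbors by the counting tool is uncertain. CORO1B was at 15.5 and 12.6 CPM in pure HEK libraries and 8.52 and 5.91 CPM in pure Jurkat libraries. QPRT was at 91.0 and 87.7 CPM in pure HEK libraries, in which SPN stayed below 1 CPM. In pure Jurkat libraries, in which SPN was high, QPRT was at 141 and 119 CPM. PTPRC and CD48 overlap long noncoding RNAs on the opposite strand, and CD6 overlaps a small nuclear RNA pseudogene of 107 bp there. No annotated gene overlaps CD2, CD7, CD5, CD28 or CD38.

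Upstream sequences are shown for PTPRC, the highest of the genes by transcript abundance, and for the family members CD2 and CD48, since all of them were low in HEK cells and high in Jurkat cells. RefSeq sequences around the start site (GRCh38.p14, 250 bases before to 50 after) were matched for 5 of the 10 genes, which were PTPRC, CD2, CD28, CD48 and CD38. The stretches below run 5′ to 3′ on the strand of the gene and stop before any base that GENCODE places in an exon. The PTPRC stretch lies within the span that GENCODE gives the gene, since RefSeq sets its start site further in, and the CD2 and CD48 stretches end at the edge of theirs. They cover chr1:198638790-198638967 (PTPRC, plus strand), chr1:116754180-116754429 (CD2, plus strand) and chr1:160711832-160712072 (CD48, minus strand). Capitals mark matches on either strand to the letters AGGAAG of ETS sites, the letters TGTGGT of RUNX sites or the letters AGATAA of GATA sites.
PTPRC: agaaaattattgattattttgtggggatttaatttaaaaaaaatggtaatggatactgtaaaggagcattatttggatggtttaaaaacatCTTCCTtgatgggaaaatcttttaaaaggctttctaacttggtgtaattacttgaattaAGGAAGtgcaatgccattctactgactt
CD2: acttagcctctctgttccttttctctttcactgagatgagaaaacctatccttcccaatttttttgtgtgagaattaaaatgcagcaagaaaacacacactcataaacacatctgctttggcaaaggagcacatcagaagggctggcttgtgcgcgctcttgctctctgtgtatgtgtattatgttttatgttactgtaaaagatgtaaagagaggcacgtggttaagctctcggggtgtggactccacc
CD48: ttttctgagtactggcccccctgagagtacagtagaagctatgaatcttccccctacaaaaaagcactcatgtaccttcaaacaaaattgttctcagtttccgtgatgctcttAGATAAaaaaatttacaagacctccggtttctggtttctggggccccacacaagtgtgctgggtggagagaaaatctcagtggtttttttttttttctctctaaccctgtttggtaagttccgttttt
PTPRC held 3 ETS matches in the whole window of 300 bases, of which the third lies at -56 to -51 from the start site, past the end of the stretch shown. The ETS letters were found in 33.7% of 34943 promoters of this length. CD48 held the GATA letters at -137 to -132, which 10.4% of promoters hold, and CD28 held the RUNX letters at -109 to -104, which 13.1% hold. CD2 and CD38 held none of these letters, and none of the 5 genes held the E box CAGCTG (17.9% of promoters), the TATA letters TATAAA (11.6%) or the GC box GGGCGG (44.9%). These matches describe the letters only, and no motif was shared by any pair of the genes.

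The first comparison asked how far the genes separate the pure lines. All 10 genes were at or near the detection floor in HEK cells and were higher in Jurkat cells, from 64.6-fold for CD38 to 3449-fold for PTPRC. In the quasi-likelihood test of edgeR, adjusted by Benjamini-Hochberg over 15794 genes, 10 of the 10 were called higher in Jurkat cells, against a background of 19% of all genes called higher and 24.2% called lower. The median log2 difference of the 10 genes was 9.28, or 8.22 with CD5 set to its lower bound, and that of all genes was -0.07. In HEK cells the genes summed to 2.73 and 2.05 CPM, and in Jurkat cells to 3220 and 3643 CPM.

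PTPRC, the phosphatase itself, was at 0.846 and 0.198 CPM in HEK libraries and at 1363 and 1670 CPM in Jurkat libraries. That is 8 and 3 reads against 6091 and 10362, a pooled ratio of 3449 (exact 95% counting interval 1927 to 6910), with a log2 difference of 11.84 (SE 0.65, adjusted p = 0.000643). PTPRCAP, a transmembrane protein bound to CD45, was at 0.587 and 0.330 CPM in HEK libraries and at 31.5 and 35.8 CPM in Jurkat libraries. Its ratio of 76.1 (42 to 154) was far below that of its partner, with a log2 difference of 6.39 (SE 0.36, adjusted p = 0.000643), and its HEK value is one of those that overlap with CORO1B makes uncertain. SPN, the mucin, was at 0.423 and 0.924 CPM in HEK libraries and at 1600 and 1703 CPM in Jurkat libraries. Its ratio was 2270 (1436 to 3830) and its log2 difference 11.38 (SE 0.45, adjusted p = 0.00064). PTPRC and SPN had the highest pooled ratios of the 10 genes, although the intervals of CD28 and CD48 below reach past both.

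CD2, the adhesion receptor for CD58, was at 0.423 and 0.066 CPM in HEK libraries and at 100 and 109 CPM in Jurkat libraries, a ratio of 520 (222 to 1604, adjusted p = 0.000711). CD48, which is linked to the membrane by a lipid anchor, was at 1 and 0 reads in HEK libraries and at 39.4 and 28.6 CPM in Jurkat libraries. Its ratio of 816 carried a wide counting interval of 146 to 32331 (adjusted p = 0.000736). Neither gene had overlapping values between the lines, and the HEK side of both rests on 5 reads or fewer.

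CD28 had 1 and 0 reads in HEK libraries and 34.0 and 35.8 CPM in Jurkat libraries, a ratio of 862 (154 to 34152, adjusted p = 0.000647). CD7 had 0 and 3 reads against 16.3 and 21.1 CPM, a ratio of 157 (52.9 to 767, adjusted p = 0.00115). CD5 had no read in either HEK library and was at 19.5 and 14.8 CPM in Jurkat libraries, at least 138-fold higher when set against a floor of 3 counts over both HEK libraries (adjusted p = 0.0011). None of these 3 genes had overlapping values, and their HEK levels rest on 3 reads or fewer. CD6, the neighbor and relative of CD5, had 1 read in each HEK library and was at 8.06 and 6.61 CPM in Jurkat libraries, a ratio of 88.8 (23.8 to 746, adjusted p = 0.00098).

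CD38 differed most between the Jurkat libraries, with 7.17 CPM in one and 17.4 CPM in the other, a 2.43-fold gap. HEK libraries had 0.128 and 0.264 CPM, so the lines did not overlap, and the ratio was 64.6 (27.0 to 202) with a log2 difference of 6.08 (SE 0.70, adjusted p = 0.00303). Expressed as a share of the Jurkat level in CPM, the HEK level was 1.59% for CD38, 1.36% for PTPRCAP and 1.17% for CD6. It was 0.0344% for PTPRC and 0.0408% for SPN. All 10 genes were also called by DESeq2, with RLE or spike-in scaling and with each pure library left out in turn, and 9 of 9 were called by limma on TPM. With Bonferroni adjustment SPN alone kept an adjusted p under 0.05.

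Levels were then compared between genes per transcript length, as TPM (abundance per length, scaled to 1000000 in each library) in the 2 pure Jurkat libraries. PTPRC was highest, at 427 and 805 TPM, and ranked 273 among all genes by its mean. SPN followed at 270 and 264 TPM, and CD2 at 79.2 and 79.9 TPM. CD48 (34.4 and 24.5 TPM) and PTPRCAP (24.2 and 27.0 TPM) overlapped and cannot be ordered. CD7 came next at 12.7 and 16.1 TPM, then CD28 at 7.02 and 7.08 TPM and CD5 at 5.89 and 4.4 TPM. CD38 (2.32 and 3.25 TPM) and CD6 (2.87 and 2.38 TPM) overlapped at the low end. The highest mean was 235 times the lowest, so a single label of surface glycoprotein covers genes of very different abundance. By counts not divided by length the first pair changes place, with SPN at 1652 ± 72.7 CPM (SD, n = 2) and PTPRC at 1517 ± 217 CPM (SD, n = 2), which overlap. The effective length that the counting tool assigned to PTPRC moved between 1760 and 3073 bases over the 14 libraries, and the TPM of this gene moves with it. Other genes were affected too, such as CD6, with 447 bases in pure HEK libraries and 3213 in the first library of 60% Jurkat cells. CD38 had 2979 and 5059 bases in the pure Jurkat libraries. PTPRC and SPN together made up 92.3% of the summed CPM of the 10 genes.

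**Figure D1:**
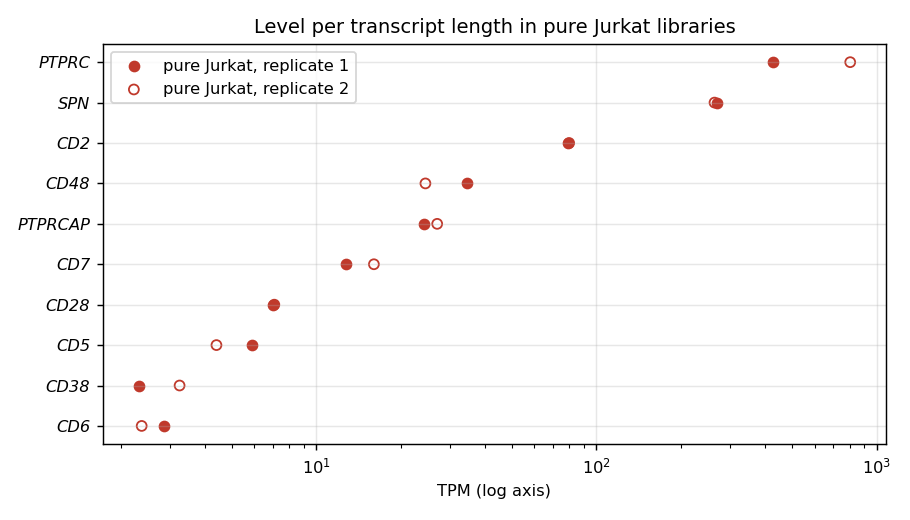
TPM of the 10 genes in the 2 pure Jurkat libraries on a log axis, with the first replicate filled and the second open. PTPRC lies at 427 and 805 TPM at the top and CD6 at 2.87 and 2.38 TPM at the bottom.

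The second comparison followed the genes through the mixtures. The summed CPM of the 10 genes went from 85.9 and 115 (20% Jurkat cells) through 168 and 193 (40%), 330 and 292 (50%) and 549 and 346 (60%) to 993 and 1110 (80%). Even at 80% Jurkat cells it was far from the 3220 and 3643 CPM of the pure cells. A pure Jurkat library had 12.1 or 12.3 gene counts per spike-in count and a pure HEK library 147 or 97.3, which puts the RNA of a HEK cell at 10.0 times that of a Jurkat cell. A fit on the log scale over all 14 libraries, chosen after seeing the data, put it at 7.15 times, and the results on additive mixing below depend on this ratio. In a mixed library fewer Jurkat cells and less RNA per Jurkat cell cannot be told apart.

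PTPRC measured 35.8 and 45.0 CPM with 20% Jurkat cells, then 53.9 and 71.5 (40%), 140 and 96.4 (50%), 226 and 148 (60%) and 371 and 488 (80%). SPN measured 33.9 and 41.4 CPM with 20% Jurkat cells, then 77.9 and 88.6 (40%), 139 and 131 (50%), 270 and 130 (60%) and 464 and 473 (80%). Both genes were close to each other throughout, and the second library at 60% Jurkat cells was the lower for both. PTPRCAP measured 0.954 and 1.78 CPM with 20% Jurkat cells, then 5.97 and 5.09 (40%), 5.27 and 15.9 (50%), 7.65 and 12.5 (60%) and 18.6 and 19.5 (80%). Its libraries at 50% differed 3.01-fold, the widest gap of any gene in any pair of libraries outside pure HEK cells.

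CD2 measured 8.90 and 19.4 CPM with 20% Jurkat cells, then 8.85 and 10.4 (40%), 24.2 and 14.3 (50%), 19.3 and 18.5 (60%) and 71.3 and 56.0 (80%). The second library at 20% Jurkat cells was above both libraries at 40%, which no other of the 10 genes showed. CD48 measured 1.63 and 1.90 CPM with 20% Jurkat cells, then 5.86 and 3.96 (40%), 8.48 and 7.91 (50%), 6.63 and 9.99 (60%) and 16.8 and 21.2 (80%). CD28 measured 1.98 and 1.98 CPM with 20% Jurkat cells, then 5.75 and 5.18 (40%), 5.97 and 8.53 (50%), 6.80 and 10.6 (60%) and 21.3 and 16.9 (80%). For CD48 and CD28 the values at 50% and 60% overlapped, while those at 20% and 40% did not.

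CD7 measured 0.593 and 1.5 CPM with 20% Jurkat cells, then 4.21 and 3.48 (40%), 3.36 and 8.72 (50%), 5.02 and 6.82 (60%) and 11.8 and 16.3 (80%). CD5 measured 0.989 and 0.954 CPM with 20% Jurkat cells, then 2.23 and 2.63 (40%), 1.94 and 5.67 (50%), 3.17 and 4.65 (60%) and 10.7 and 9.88 (80%). In the pair of libraries at 50% Jurkat cells, CD7, CD5, CD6 and PTPRCAP were all higher in the second library, by 2.6, 2.92, 2.39 and 3.01 times, while PTPRC, SPN, CD2 and CD48 were higher in the first. These 2 libraries also differ in depth, with 28303668 and 16404261 gene counts, and in the group of their file names, and the part of either was not tested. CD6 measured 0.725 and 0.954 CPM with 20% Jurkat cells, then 1.72 and 0.928 (40%), 1.20 and 2.87 (50%), 1.85 and 2.17 (60%) and 4.09 and 5.12 (80%). CD38 measured 0.463 and 0.545 CPM with 20% Jurkat cells, then 1.29 and 0.852 (40%), 1.06 and 1.10 (50%), 2.69 and 2.58 (60%) and 2.80 and 3.35 (80%). Over all 60 pairs of libraries outside pure HEK cells the median gap between replicates was 1.26-fold, and 8 pairs differed by more than 2-fold.

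**Figure D2:**
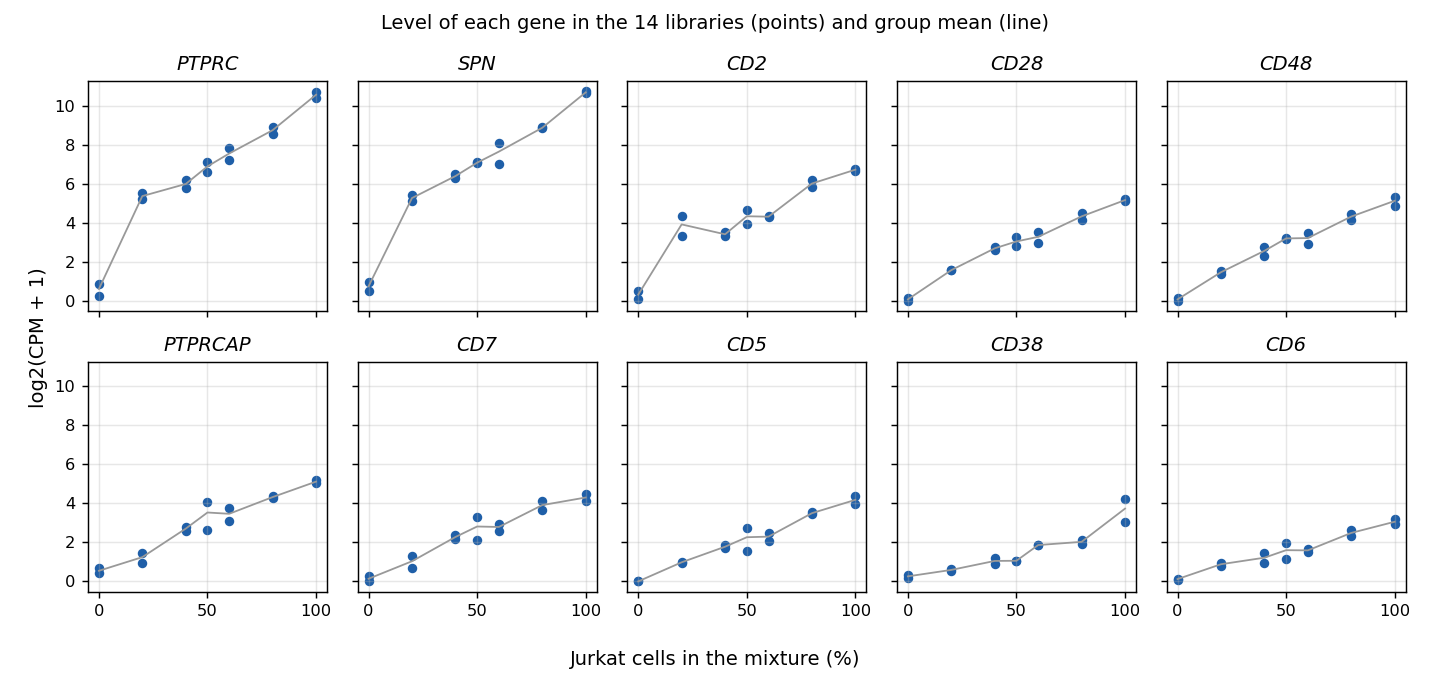
Level of each gene as log2(CPM + 1) against the percentage of Jurkat cells, 1 point for each of the 14 libraries and a line through the means of the 2 libraries. PTPRC and SPN climb from below 1 CPM to 1363 CPM or more, and the other 8 genes end at 109 CPM or less.

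Neighboring percentages were tested with edgeR over all 14 libraries and 19129 genes, with Benjamini-Hochberg adjustment within each of the 6 contrasts. At the first step, from 0% to 20% Jurkat cells, 7 of the 10 genes rose, against 0.941% of all genes called higher. PTPRC rose by 6.46 on the log2 scale (SE 0.58, adjusted p = 0.000136), SPN by 5.77 (SE 0.49, adjusted p = 0.000104) and CD2 by 6.06 (SE 0.65, adjusted p = 0.000438). CD28 had a pooled ratio of 48.7 (8.40 to 1954, adjusted p = 0.000621), CD48 of 43.7 (7.51 to 1759, adjusted p = 0.00148) and CD6 of 10.3 (2.57 to 89.8, adjusted p = 0.0439). CD5 was at least 7.97-fold higher (adjusted p = 0.013). CD7 had a ratio of 8.52 (2.66 to 43.6) and did not pass (adjusted p = 0.199), nor did PTPRCAP at 3.07 (1.55 to 6.63, adjusted p = 0.581) or CD38 at 2.47 (0.855 to 8.70, adjusted p = 0.883). The median log2 difference of the 10 genes was 5.28, or 4.24 with CD5 at its bound, against 0.01 for all genes. Fitted to these 2 groups alone, the test called 3 of the 10. The call for CD6 was lost with DESeq2 (adjusted p = 0.162), with spike-in scaling (adjusted p = 0.729) and without any one of 10 libraries (adjusted p from 0.0658 to 0.559), and that for CD5 without either pure HEK library (adjusted p = 0.0682 and 0.174).

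At the steps in the middle of the series none of the 10 genes passed the test. From 20% to 40% Jurkat cells, from 40% to 50% and from 50% to 60%, 0 of the 10 genes were called by edgeR, against 0% of all genes called higher at each of these 3 steps. At an unadjusted p under 0.05 there were 6, 4 and 1 of the genes, among 1630, 1235 and 1491 genes in all. DESeq2 called 2, 0 and 0 of the 10, among 163, 65 and 83 genes in all. From 60% to 80%, 0 of the 10 were called by edgeR against 0.0157% of all genes. At an unadjusted p under 0.05 there were 9 of the 10, among 2213 genes in all. DESeq2 called 3 of the 10, among 380 genes in all. The log2 differences at that step ran from 0.21 for CD38 to 1.75 for CD2, and those of PTPRC and SPN were 1.17 and 1.19.

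At the last step, from 80% to 100% Jurkat cells, 5 of the 10 genes rose against 7.65% of all genes. CD38 rose by 2.14 on the log2 scale (SE 0.42, adjusted p = 0.00297), PTPRC by 1.95 (SE 0.42, adjusted p = 0.0052) and SPN by 1.94 (SE 0.38, adjusted p = 0.0028). CD28 rose by 0.99 (SE 0.28, adjusted p = 0.0208) and CD48 by 0.96 (SE 0.30, adjusted p = 0.0356). CD2 differed by 0.84, CD5 by 0.85, CD6 by 0.79, PTPRCAP by 0.95 and CD7 by 0.55, and none of these passed (adjusted p from 0.092 to 0.377). The median of the 10 genes was 0.95 and that of all genes -0.13. Of the 5 steps between libraries that hold Jurkat cells, this one had the largest fitted difference for PTPRC, SPN and CD38, and the steps were not tested against each other. When libraries were scaled by spike-ins none of the 10 was called by edgeR at this step and 0 had an unadjusted p under 0.05, and the log2 difference of PTPRC was 0.88 and that of CD48 -0.10. The count lay between 2 and 7 when single libraries were left out, and SPN alone kept its call each time. PTPRC lost it without the first library of 80% Jurkat cells (adjusted p = 0.0621) and CD38 without the second pure Jurkat library (adjusted p = 0.061).

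Placed beside the pure Jurkat level, the genes formed a pair and a group of 7, with CD38 near the pair at some percentages and within the 7 at others, a grouping made after the values were seen. At 50% Jurkat cells PTPRC was at 7.78% ± 2.01 and SPN at 8.16% ± 0.334 of the pure Jurkat CPM (SD, n = 2), while CD2, CD28, CD48, CD5, CD6, CD7 and PTPRCAP had means from 18.3% to 32.2%. CD38 was at 8.80% ± 0.22 there. At 80% Jurkat cells PTPRC was at 28.3% ± 5.48, SPN at 28.4% ± 0.364 and CD38 at 25.1% ± 3.17, and the 7 other genes had means from 54.8% to 75.1%. At 20% Jurkat cells the values were 2.66%, 2.28% and 4.10% against 4.06% to 13.5%, so that CD38 and PTPRCAP met. At 40% PTPRC (4.14%) and SPN (5.04%) lay below CD38 (8.71%), which was next to the lowest of the 7 (9.19% to 20.5%). At 60% CD38 (21.5%) lay within the range of the 7 (18% to 31.6%), above PTPRC (12.3%) and SPN (12.1%).

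Counts per spike-in count give the level on a scale that is set by the spike-ins and not by the total RNA. On that scale PTPRC was at 23.4% ± 14.4 and SPN at 23.6% ± 10.0 of the pure Jurkat level in libraries of 50% Jurkat cells (SD, n = 2), and the 7 other genes had means from 55.3% to 81.2%. At 80% Jurkat cells PTPRC was at 54.3% ± 27.5 and SPN at 52.9% ± 18.1, while the 7 had means from 99.2% to 145%. CD38 was at 25.0% and 47.4% at these percentages. At 20% Jurkat cells PTPRC was at 19.5% ± 14.8, above its 15.2% ± 9.15 at 40%, and the 7 had means from 32.1% to 109%, the highest being CD2 at 109% ± 109. Replicates differed widely on this scale, since the spike-in share itself differed between them. The second library of 20% Jurkat cells had 123 gene counts per spike-in count and the first 46.6.

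**Figure D3:**
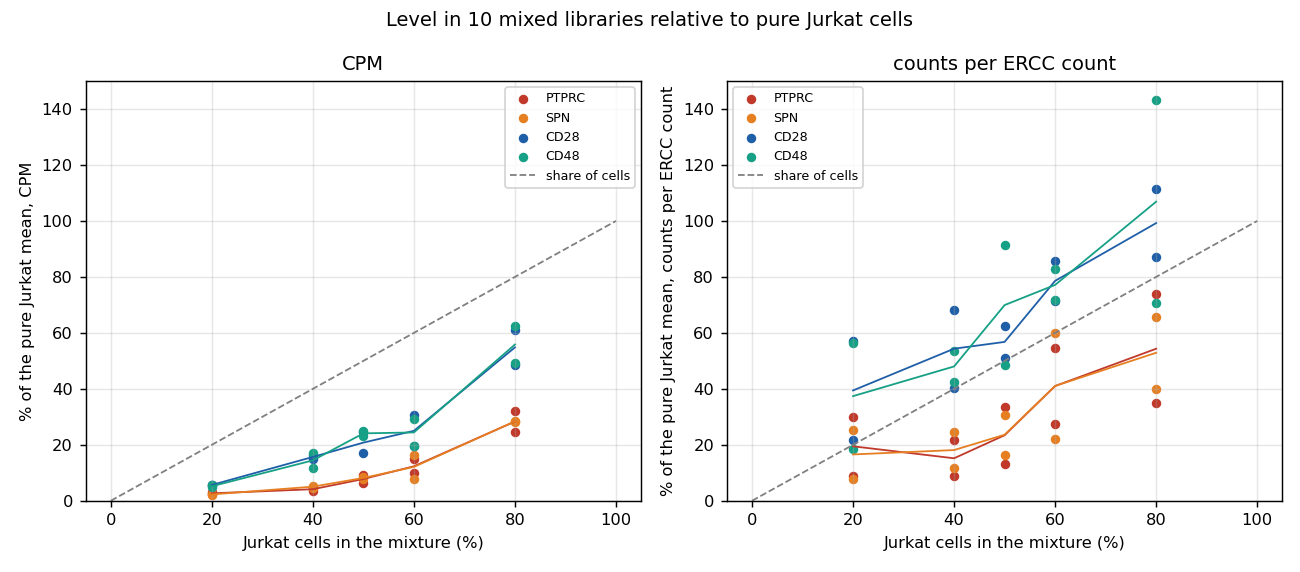
Level of PTPRC, SPN, CD28 and CD48 in the 10 mixed libraries as a percentage of the pure Jurkat mean, in CPM (left) and in counts per spike-in count (right), against the percentage of Jurkat cells. Points are libraries, lines join the means of 2, and the dashed line is the share of cells. At 50% Jurkat cells CD28 and CD48 lie above PTPRC and SPN on both scales.

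The third comparison asked whether each level in a mixture was what additive mixing of the pure lines gives. The expected CPM was the mean of the pure lines weighted by their RNA shares, which put Jurkat RNA at 2.43%, 6.23%, 9.06%, 13.0% and 28.5% of the total for 20%, 40%, 50%, 60% and 80% Jurkat cells. It entered as a fixed value, so the SEs and p-values of this test cover only the spread of the 10 mixed libraries. They leave out the error of the pure libraries, which moves all ratios of a gene together. Of the 9 genes that could be tested, 6 lay above the expected level and none below (0 below at an unadjusted p under 0.05), with about 2 times the expected counts. Among 15917 genes tested by edgeR's quasi-likelihood fit over the 10 mixed libraries, 4.88% were called above and 5.5% below. Among the 270 tested genes specific to Jurkat cells (defined below), which include these 9, 53.0% were called above. Being above the expected level was thus common among such genes, and the 6 of 9 were not tested against that share. The median log2 ratio of observed to expected was 1.09 for the 9 genes and 0.01 for all genes.

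PTPRC and SPN were not called away from additive mixing at this RNA content ratio. With the ratio of 7.15 fitted over all 14 libraries both were called below it, PTPRC at -0.56 (adjusted p = 0.00854) and SPN at -0.55 (adjusted p = 0.0042). PTPRC had a log2 ratio of -0.14 (SE 0.11, adjusted p = 0.568), with libraries from -0.82 to 0.27, of which 4 of 10 were above the expected level. SPN had a log2 ratio of -0.14 (SE 0.10, adjusted p = 0.58), with libraries from -0.73 to 0.33, of which 3 of 10 were above. The sign of either value turned when the second pure HEK library was left out (0.09 and 0.10), and both genes were called below the expected level without the first (-0.42 and -0.42). These libraries set the RNA content ratio of the lines, since their gene counts per spike-in count were 147 and 97.3. CD38 had a log2 ratio of 0.06 (SE 0.13, adjusted p = 0.877) with 4 of 10 libraries above, and was called above the expected level, at 0.70, when its high Jurkat library was left out.

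CD7 was furthest above, with a log2 ratio of 1.41 (SE 0.13, adjusted p = 9.53e-06), or 2.66 times the expected counts, and it was above in 10 of 10 libraries. CD2 had 1.23 (SE 0.19, adjusted p = 0.000765) and was above in 10 of 10. The second library of 20% Jurkat cells lay at 2.80 for CD2 and was its highest. CD5 had 1.10 (SE 0.12, adjusted p = 4.61e-05), CD28 had 1.09 (SE 0.09, adjusted p = 2.61e-06) and CD48 had 1.10 (SE 0.09, adjusted p = 3.44e-06), each above in 10 of 10 libraries. PTPRCAP had 1.06 (SE 0.16, adjusted p = 0.000599) and was above in 9 of 10, the exception being the first library of 20% Jurkat cells at -0.41. Of these 6 genes, CD28 and CD48 varied least over libraries, with SDs of 0.27 and 0.29, and CD2 most, with an SD of 0.76. With single libraries left out in turn, pure ones included, CD28 ranged from 0.83 to 1.29 and CD48 from 0.84 to 1.33. CD6 had a mean expected level of 0.944 CPM, under the minimum of 1 CPM set for the test, and its libraries had a mean log2 ratio of 1.25 ± 0.46 (SD, n = 10), above in 10 of 10. Over the alternatives run, leave-one-out fits included, the adjusted p of the 6 genes called above stayed at or under 0.0185, but their sign depended on the RNA content ratio. With equal RNA per cell assumed for the lines, 0 of the 10 were above and 10 below.

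The groups of file names were compared for the same ratio. Over the 6 mixed libraries of the first group and the 4 of the second, the mean log2 ratio was 0.83 and 1.35 for CD2, 0.96 and 1.26 for CD28, 0.99 and 1.19 for CD48, and 0.89 and 1.34 for CD5. It was 1.25 and 1.39 for CD7, 0.92 and 0.88 for PTPRCAP, and 0.93 and 1.74 for CD6. All 7 means were positive within either group. These 7 genes were singled out from the same 10 libraries, so this is a description and no separate check. Both libraries of 20% Jurkat cells are in the second group and all those of 60% and 80% in the first. A difference between the group means therefore cannot be told apart from one between percentages. For PTPRC the mean log2 ratio was -0.11 and -0.28, for SPN -0.13 and -0.21, and for CD38 0.04 and 0.07.

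**Figure D4:**
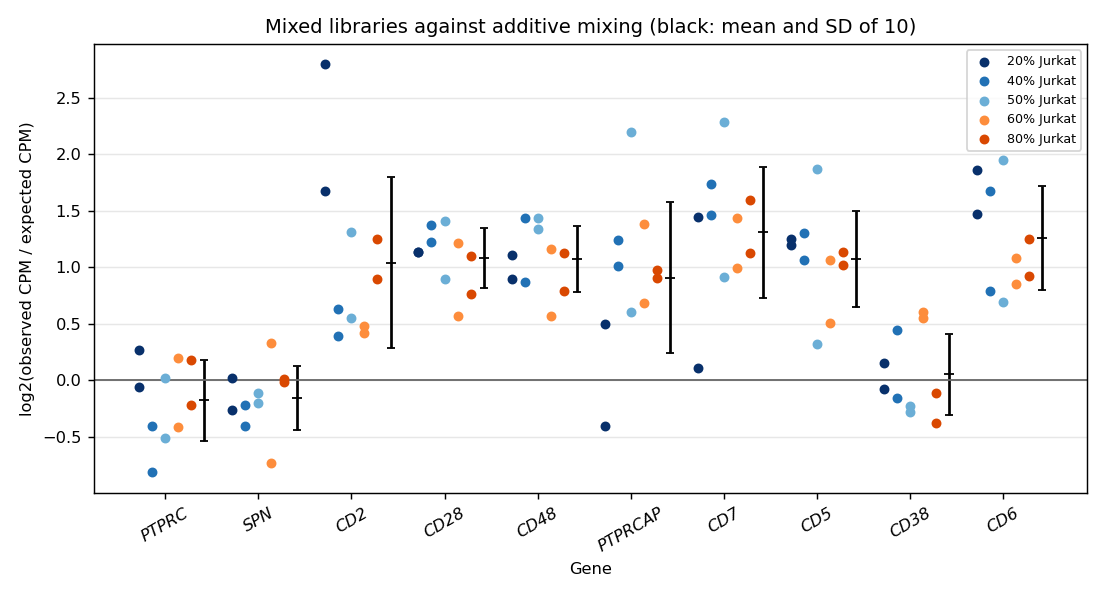
log2 ratio of observed to expected CPM for each gene in the 10 mixed libraries, colored by the percentage of Jurkat cells, with the mean and SD of the 10 libraries in black. PTPRC, SPN and CD38 scatter around 0 with means of -0.18, -0.16 and 0.05, and the other 7 genes have means from 0.91 to 1.31.

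The 10 genes were set among all 316 genes that were specific to Jurkat cells, defined as at least 5 CPM in pure Jurkat libraries and at most 2% of that in pure HEK libraries. These 316, which include the 10, had a median mean log2 ratio of 0.376, and 71.2% had a mean above 0. Among the 270 that were tested, 143 (53.0%) were called above the expected level and 2 below. PTPRC and SPN were at percentiles 19.9 and 20.9 of the 316 and CD38 at 30.4, while PTPRCAP was at 75.6, CD2 at 82.0, CD5 at 84.8, CD48 at 85.4, CD28 at 86.1, CD6 at 96.2 and CD7 at 97.8. The median fell with the Jurkat level, from 0.556 in 127 genes of 5 to 20 CPM and 0.497 in 126 genes of 20 to 100 CPM to 0.269 in 58 genes of 100 to 500 CPM. The 5 genes of at least 500 CPM, which include PTPRC and SPN, had a median of -0.18 and none above 0. The median ratio to expected was thus lower where abundance in Jurkat cells was higher. The share of genes above 0 was 67.7%, 75.4% and 75.9% over the ranges of that abundance below 500 CPM. The expected level contains that abundance, and the part of abundance in the differences among the 10 genes was not tested.

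The measured proportion between genes within one library does not use the RNA content ratio. HEK reads raise it for the genes whose HEK level is a larger share of the Jurkat level than that of PTPRC, so the proportion that additive mixing gives at the RNA content ratio of 10.0 is stated beside it. SPN had 117 and 102 counts per 100 PTPRC counts in pure Jurkat libraries and from 87.4 to 145 in mixed libraries, of which 5 were above and 5 below both pure values, and additive mixing gives 109 throughout. PTPRCAP had 2.31 and 2.15 counts per 100 PTPRC counts in pure Jurkat libraries and from 2.66 to 16.5 in mixed libraries, where additive mixing gives 2.29 to 3.39. CD2 had 7.37 and 6.54 in pure libraries and from 8.55 to 43.0 in mixed ones, where additive mixing gives 6.95 to 7.46. All 10 mixed libraries were above both pure Jurkat libraries for these 2 genes, and above the additive value in 10 of 10 for CD2 and 9 of 10 for PTPRCAP. CD7 went from 1.20 and 1.26 to between 1.66 and 9.04 (additive 1.25 to 1.48), and CD6 from 0.591 and 0.396 to between 0.821 and 3.18 (additive 0.497 to 0.701). CD28 went from 2.49 and 2.14 to between 3.01 and 10.7 (additive 2.31 to 2.41), and CD48 from 2.89 and 1.71 to between 2.94 and 10.9 (additive 2.25 to 2.35). These 4 were above both pure values and the additive value in all 10 mixed libraries. Additive mixing gives 1.12 to 1.13 for CD5 and 0.842 to 1.31 for CD38. CD5 was above both pure values in 8 and CD38 in 7, or in 8 and 5 when the additive value had to be passed as well. In all, 6 of the 9 genes did not overlap between mixed and pure libraries, against 30.2% of 315 Jurkat-specific genes. With the additive value included, a condition added after the data were seen, it was 5 of 9 against 27.6%. The additive values use the RNA content ratio, and with 7.15 the counts were 5 of 9 against 28.9%, and with equal RNA per cell 6 of 9, PTPRCAP included, against 30.2%. CD38 passed in 7 libraries with either of these ratios. All of these proportions share the PTPRC counts, so they move together where PTPRC moves.

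**Figure D5:**
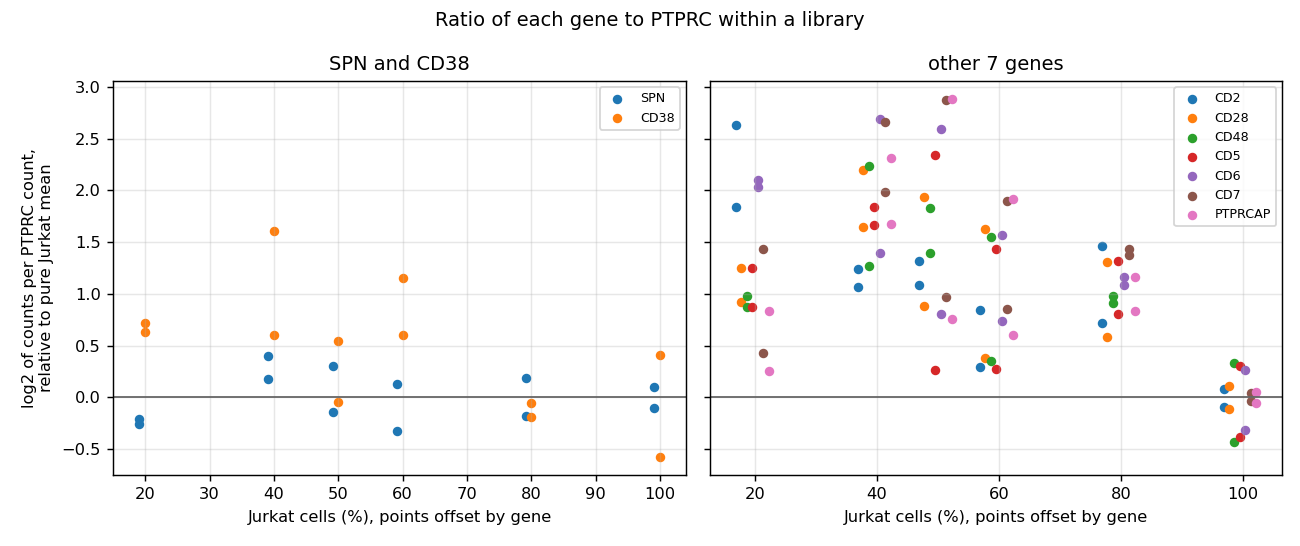
log2 of the counts of each gene per PTPRC count, relative to the mean of the pure Jurkat libraries, against the percentage of Jurkat cells, with 1 point per library and gene. SPN stays around 0, while CD2, CD28, CD48, CD6, CD7 and PTPRCAP lie above both pure Jurkat libraries in all 10 mixed libraries, in 1 of which PTPRCAP is below what additive mixing gives at the RNA content ratio of 10.0.

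Mutual linearity between genes was measured as the coefficient of determination of the identity line between CPM scaled to the same sum over the 14 libraries, taking the lower of the 2 directions, as a description. The pair of PTPRC and SPN had the highest value of all 45 pairs, 0.991. Among CD2, CD28, CD48, CD5, CD6, CD7 and PTPRCAP the 21 pairs ran from 0.794 to 0.966 with a median of 0.910. Between PTPRC or SPN and each of the 8 other genes the 16 pairs ran from 0.205 to 0.869 with a median of 0.578. The lowest of all was CD6 with CD38, at -0.12, which is worse than a flat line. Over the 10 mixed libraries alone PTPRC with SPN was again highest, at 0.957, but the other pairs were less clearly divided. The 21 pairs then ran from 0.365 (PTPRCAP with CD2) to 0.947 with a median of 0.835, and the 16 pairs from 0.441 to 0.830 with a median of 0.724. CD6 with CD38 was at 0.586 there, and the lowest pair was CD2 with CD38, at 0.105. All pairs share the same libraries.

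The genes most like the 10 over the 14 libraries were FYB1 (Pearson r = 0.997 with the summed level of the 10 genes, on the log2(CPM + 1) scale), ITM2A (0.995), PTPN7 (0.991), IKZF1 (0.989) and CD1E (0.988). FYB1 encodes an adaptor of T cell signaling, PTPN7 a phosphatase of hematopoietic cells and IKZF1 the transcription factor Ikaros. Their mean levels in pure Jurkat libraries were 1278, 447, 311, 228 and 181 CPM, and each was under 1 CPM in pure HEK libraries. Of 10018 genes compared, 125 had an r over 0.9. The summed level is mostly that of PTPRC and SPN, so likeness to it is mostly likeness to these.

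The partners of the 10 proteins were examined in the pure lines with the same test and background as above. Of 14 ligands and counter-receptors, 8 had too few counts to be tested, 1 was higher in Jurkat cells, 3 were higher in HEK cells and 2 were not called. PECAM1, an adhesion molecule bound by CD38, was higher in Jurkat cells by 7.17 on the log2 scale (SE 0.59, adjusted p = 0.00117). ALCAM, the ligand of CD6, was higher in HEK cells, at 86.9 ± 7.03 CPM against 26.9 ± 1.54 CPM (SD, n = 2; adjusted p = 0.00526 by edgeR), and so was LGALS3, a galectin, at 9.73 ± 2.38 against 2.95 ± 1.21 CPM (adjusted p = 0.03 by edgeR, n = 2). The median log2 difference of the 6 tested was -1.06.

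Of 20 related receptors of the same families or cells, 10 had too few counts, 9 were higher in Jurkat cells and 1, the tetraspanin CD37, was higher in HEK cells by 2.88 on the log2 scale. CD84, a relative of CD48, differed by 9.43 (SE 0.35, adjusted p = 0.00064) and CD53, another tetraspanin, by 8.74 (SE 0.54, adjusted p = 0.000704). CD52, a short lipid-anchored glycoprotein, differed by 7.80 (SE 0.39, adjusted p = 0.00064). The median of the 10 tested was 7.86.

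Of 19 intracellular partners all were tested, with 12 higher in Jurkat cells, 2 higher in HEK cells, 5 not called and a median of 2.71. GRAP2, an adaptor downstream of CD28, had no read in HEK libraries and was higher by at least 741-fold in Jurkat cells (adjusted p = 0.000643). SH2D1A, the adaptor of the receptors related to CD48 and CD84, had 1 and 0 reads in HEK libraries and 90.5 ± 39.3 CPM in Jurkat libraries (SD, n = 2; adjusted p = 0.000884 by edgeR). RDX, one of the linkers of CD43 to actin, was higher in HEK cells by 1.35 on the log2 scale (SE 0.20, adjusted p = 0.00578), while its relatives MSN and EZR were higher in Jurkat cells by 3.46 (adjusted p = 0.00359) and 1.5 (adjusted p = 0.009). LCK counts here and among the T cell markers.

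Of 12 enzymes that build O-glycans or add sialic acid, 4 were higher in Jurkat cells, 1 was higher in HEK cells and 7 were not called, with a median of 0.41. ST3GAL1, a sialyltransferase of O-glycans, was higher by 1.97 on the log2 scale (SE 0.22, adjusted p = 0.00291) and GALNT2, which starts O-glycans, by 1.63 (SE 0.22, adjusted p = 0.00443). C1GALT1C1, the chaperone of the enzyme that extends them, was lower in Jurkat cells, with 7 and 32 reads against 172 and 214 in HEK libraries (log2 difference -1.97, SE 0.51, adjusted p = 0.0306). Of 5 regulators of CD45 splicing, none was called higher in Jurkat cells by edgeR or DESeq2 (0 at an unadjusted p under 0.05 by edgeR) and 2 were higher in HEK cells, which were SRSF1 (-0.85, SE 0.22, adjusted p = 0.031) and PTBP1 (-0.81, SE 0.19, adjusted p = 0.0237). SFPQ, which represses the variable exons, was the most abundant of them and did not pass at 0.46 (SE 0.21, adjusted p = 0.144).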

How the data were processed

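RNA-seq of 14 libraries was examined. The authors selected poly(A) RNA, aligned single-end reads with STAR 2.6.1b to GRCh38 with the ERCC sequences and quantified genes with RSEM 1.3.1, per the submitters' processing notes. The annotation release is not given in the sources used here. For each library the authors deposited expected counts, which are not normalized and need not be whole, and TPM, which RSEM scales to 1000000 over genes and spike-ins. FPKM values and the joint table were not used.

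The 10 genes and all gene lists were chosen with earlier results of these data known. CPM were computed from expected counts over gene rows, without ERCC rows. Identifiers were matched to GENCODE release 44, and 57754 of 58440 genes had a symbol. The rest took up to 0.327% of a library's counts. Expected counts were rounded for the tests, which used edgeR 4.0.16 (glmQLFit and glmQLFTest, TMM, filterByExpr) in R 4.3.3, with Benjamini-Hochberg adjustment over all genes tested at 0.05. DESeq2 1.42.0 and limma 3.58.1 (on log2(TPM + 1)) were alternatives. The pure lines were compared in their 4 libraries, and neighboring mixtures in all 14. For additive mixing, the log of the expected count was the offset of an intercept-only fit, the lowest expected level was 0.2 CPM, and genes with a mean expected level of at least 1 CPM were tested. edgeR's function refuses a design with an intercept only, so the quasi-likelihood F test was computed from the same deviances. The scripts were tested on simulated data. Pooled ratios have exact 95% intervals and spike-in shares Wilson intervals, which, like the floor of 3 counts (0.106 to 0.671 CPM per library), cover counting error only. The values count reads, which are not independent molecules.

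Named genes were the 10 members, the 2 called genes with the largest log2 difference and the most abundant gene of each list, and the 5 genes with the highest Pearson r over the 14 libraries, among genes whose mean log2(CPM + 1) reached 3. Genes of chromosome Y and XIST were left out of that ranking. One gene that this rule names is not reported here. CD37, CORO1B, QPRT, LCK, MSN and EZR were named after their values were seen. The alternatives tried were other scalings, no filter on low counts, another tool, other libraries in the fit, other RNA content ratios, another unit and leaving out each library. Python 3.11.15 was used for tables.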

Additional observations from a re-analysis of the deposited data

How the results depend on the processing

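Between the pure lines, 10 of the 10 genes were called higher in Jurkat cells with RLE or spike-in scaling, no filter, DESeq2, all 14 libraries in the fit or any 1 pure library left out (the lone library is then assumed to vary like the other group). They were 9 of 9 by limma on TPM and 1 with Bonferroni adjustment. For 80% against 100% HEK cells, fitting the 2 groups alone gave 3 calls in place of 7. For 60% against 80% it gave 2 in place of 0, as did DESeq2 (2), and no filter on low counts gave 4. With no filter there was 1 call for 50% against 60% and there were 7 for 20% against 40% HEK cells, where DESeq2 gave 3. For 0% against 20% HEK cells the 5 calls became 0 with spike-in scaling, where CD48 turned to -0.10, 3 with no filter and 8 with the 2 groups alone, and ranged from 2 to 7 with single libraries left out. Spike-in scaling moved the median of all genes between the pure lines from -0.07 to -3.61. For additive mixing, 6 genes above the expected level became 0 with an RNA content ratio of 1 (range from 6 to 8 with single libraries left out), and 0 below became 10 with that ratio, 2 with a ratio of 7.15 fitted on the log scale (PTPRC -0.56, SPN -0.55), and from 0 to 2 with single libraries left out. With the ratio of 1, values turned to -1.04 for PTPRCAP, -1.11 for CD2, -0.77 for CD7, -1.15 for CD5, -1.18 for CD28, -1.16 for CD48 and -1.99 for CD38. CD38 also turned to -0.28 with the fitted ratio and to -0.087 with a lowest expected level of 1 CPM, and ranged from -0.38 to 0.70 with single libraries left out, being -0.23 without the first pure HEK library, -0.02 without the first of 40% HEK cells and -0.38 without the first pure Jurkat library. PTPRC ranged from -0.42 to 0.090 (0.02 without the second pure Jurkat library) and SPN from -0.42 to 0.10. The median level at 50% Jurkat cells was 21.5% of the pure Jurkat level in CPM and 56.5% per spike-in count. The mean log2 ratio of CD6 was 1.74 in the second group of file names and 1.25 over all. The fitted ratio and the file-name groups were chosen after seeing the data. A straight line for the ratio gave a negative value at 0% HEK cells and no result. Other causes of these changes were not tested. No paired analysis was possible because the labels number the mixtures from 1 to 14 and give the groups no shared replicate numbers (those used here follow accession order). At 3 counts per library, the shallowest library does not resolve levels under 0.671 CPM.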
